A study of Amphiura filiformis with 28 samples.

Results

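The 100 genes described here were those that stood highest through stages 3 to 5 of arm regeneration in the brittle star *Amphiura filiformis*, out of 28263 genes in the table of the arm regeneration series. Each gene was scored as the log2 ratio of its lowest value over stages 3, 4 and 5 to its highest value over the non-regenerating control and the samples at 48 and 72 h post amputation (hpa), with 1 added to both values, and the 100 genes with the highest scores were kept. The members were thus chosen by their values in these 6 samples, which are given as a description. The samples not used by the rule are the distal and proximal parts of the 50% regenerate and all 20 arm explants, in which all 100 members were listed among 30090 genes.

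The animals were wild-type brittle stars collected from the sea, and no genetic treatment is given for any group. By the methods, the animals that gave the explants, and later the explants themselves, were sedated with magnesium chloride for cutting. In the arm regeneration series, each of 8 stages was a single sample, pooled from regenerates of different animals. The control was, by the methods, a segment of mature arm that was not regenerating, although its tissue label is that of a regenerating explant. The samples at 48 and 72 hpa were the last arm segment at the amputation site, so they hold wounded mature tissue, while those of stages 3 to 5 held regenerated tissue alone. Stage 50% is a regenerating arm of which 50% has differentiated. Several segments were taken from its less differentiated distal end and from its more differentiated proximal end, called its distal and proximal parts here. The differentiated cap at the distal end was left out. The explants were severed arms wounded at both ends and kept in culture, then cut into distal, medial and proximal segments at 3 or 5 days post amputation (dpa). The distal end regenerates, the proximal end closes its wound without regenerating and the medial segment served as the control. There were 4 distal, 4 medial and 3 proximal samples at 3 dpa, and 3 of each at 5 dpa, each made from a batch of many explants.

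Brittle stars regrow a lost arm from a bud at the tip of the stump. After wound closure, cells divide and the bud grows out, with the radial water canal and the nerve visible at stage 3 and the first repeated units of the arm at stage 4. The arm then extends, and its distal end is less differentiated than its proximal end, apart from a differentiated cap at the distal end. All samples are whole arm tissue with many cell types. In such samples, a higher share of cells that express a gene and more RNA of that gene per cell cannot be told apart.

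Values are TPM (transcript abundances corrected for length and library total) to which the authors applied a TMM rescaling across samples, so the columns do not share a common total. Column totals ran from 551379 in the proximal part of the 50% regenerate to 1866500 at stage 3, and from 1024512 to 2976429 in the explants. The highest total in the explants was that of proximal replicate 4 at 5 dpa. Medial replicate 2 at 5 dpa had the most genes listed at 0, at 7439. Values of this kind keep no record of sequencing depth, so no counting error can be given. The gene table used here covers chromosome 1 and lists 2 of the 100 members. The other identifiers are not paired with gene names in the files used here, and none matched the RefSeq annotation of the species, so they are given as identifiers without a role.

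In the samples that chose them, the members had a median of 1.23 rescaled TPM in control tissue, of 1.67 by 48 hpa and of 2.13 by 72 hpa. The median was 14.3 at stage 3, 17.2 at stage 4 and 17.04 at stage 5. Levels of the members ranged widely, from 2.85 to 6127 at stage 3. Of the 100 members, 61 were at 10 or more in each of stages 3, 4 and 5, and 23 were under 1 in all 3 earlier samples. The ratio of the highest to the lowest of the 3 stages had a median of 1.36 over members and was under 2 in 97. The score uses the lowest stage, which favours genes with similar values across the stages, so nothing is read from this ratio. It also depends on scaling, as the column total was 1866500 at stage 3 and 867837 at stage 5. The size of the rise over the earlier samples depends on scaling too. The median score of the members was 1.81 on the log2 scale and the lowest 1.51, and with samples rescaled to the same total they were 0.83 and -0.01. The stage with the highest value was stage 3 for 36 members, stage 4 for 29 and stage 5 for 35. Among the 3 earlier samples, the highest value was at 72 hpa for 71 members, at the control for 19 and at 48 hpa for 10. The plot of the regeneration series shows every member across the 8 samples.

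**Figure D1:**
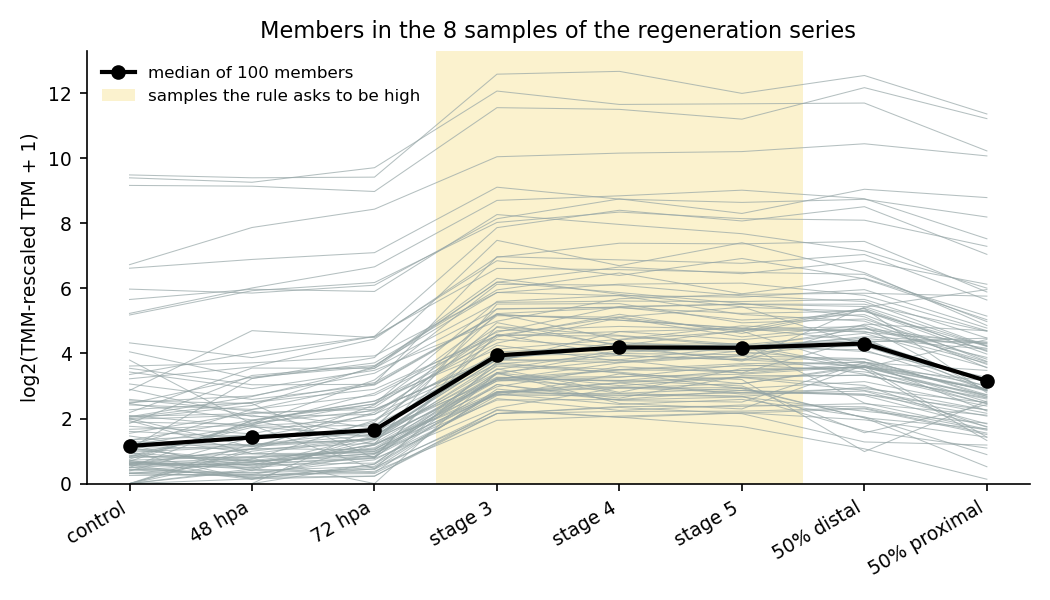
Each grey line is 1 of the 100 members, drawn across the 8 samples of the regeneration series (x axis) as log2(rescaled TPM + 1) (y axis), with 1 sample per stage. The black line is the median of the members, which stood at 2.13 rescaled TPM at 72 hpa, 14.3 at stage 3, 18.8 in the distal and 7.92 in the proximal part of the 50% regenerate; shading marks the samples required to be high.

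The 3 members with the highest scores were AFI10151, AFI07809 and AFI21559, with scores of 3.70, 3.34 and 3.15. AFI10151 was at 4.34, 3.86 and 7.38 rescaled TPM in the 3 earlier samples, in the order above, then at 125, 116 and 108 at stages 3, 4 and 5. AFI07809 was at 9.20, 15.3 and 22.04 in the 3 earlier samples and at 232, 337 and 268 in the 3 stages. AFI21559 was at 2.71, 2.52 and 4.47 before and at 47.5, 53.9 and 52.1 in the stages. In each of these 3 members the lowest stage lay far above all 3 earlier samples.

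The 2 most abundant members at stage 4 were AFI22293 and AFI28565. AFI22293 was listed at 716, 673 and 683 rescaled TPM in the control, 48 hpa and 72 hpa samples and at 6127, 6506 and 4069 in the stages. AFI28565 was listed at 673, 612 and 835 and then at 4277, 3215 and 3260. These 2 members were thus abundant before regenerated tissue was sampled, unlike AFI13555, which was listed at 0, 1.09 and 4.34 in the 3 earlier samples before reaching 34.8, 33.6 and 24.7.

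The limit of the rule fell in a dense part of the ranking. The last 3 members, AFI30175, AFI00393 and AFI21177, each had a score of 1.51, and the first 3 genes outside, AFI15028, AFI02352 and AFI32612, had scores of 1.51, 1.48 and 1.48. In all, 3540 genes had a score above 0 and 277 had a score of at least 1.

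In the 50% regenerate, the median of the members in the distal part was near that of stages 3 to 5, and the proximal part was lower on the deposited scale. The median of the members was 18.8 rescaled TPM in the distal part and 7.92 in the proximal part. With 1 added to each value, 91 of the 100 members were over 2 times their highest earlier value in the distal part, against 2.4% of all genes, and 63 were in the proximal part, against 1.69%. In the distal part, 94 members were at 50% or more of their lowest stage, against 99.7% of all genes, and in the proximal part 66 were, against 98.1%. The rule asked for low values in the earlier samples and high values in the stages, so nothing is read from the distance of any of these counts to the background. With samples rescaled to the same total, 79 and 75 members were over 2 times their earlier level in the distal and proximal part, and 98 and 94 were at 50% or more of their lowest stage. No member of the 100 was at or below its highest earlier value in the distal part, and 7 were in the proximal part. There was a single sample of each part, so none of these differences can be set against an experimental error.

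Within the 50% regenerate, 95 members were higher in the distal than in the proximal part, against 42.5% of all genes. The median log2 ratio of distal to proximal was 0.91 over members and 0.00 over all genes. This difference depends on scaling, because the column of the distal part sums to 979118 and that of the proximal part to 551379. With both rescaled to the same total, 67 members were higher in the distal part, the median log2 ratio was 0.19 over members and it was -0.24 over all genes. As a share of the column total, the members held 0.148%, 0.36% and 0.518% in the control, 48 hpa and 72 hpa samples and 1.01%, 1.28% and 1.74% at stages 3, 4 and 5. They held 2.01% in the distal and 1.75% in the proximal part. Such shares weigh abundant members most: at stage 3, AFI22293 was at 6127 and AFI28565 at 4277, against a member median of 14.3.

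**Figure D2:**
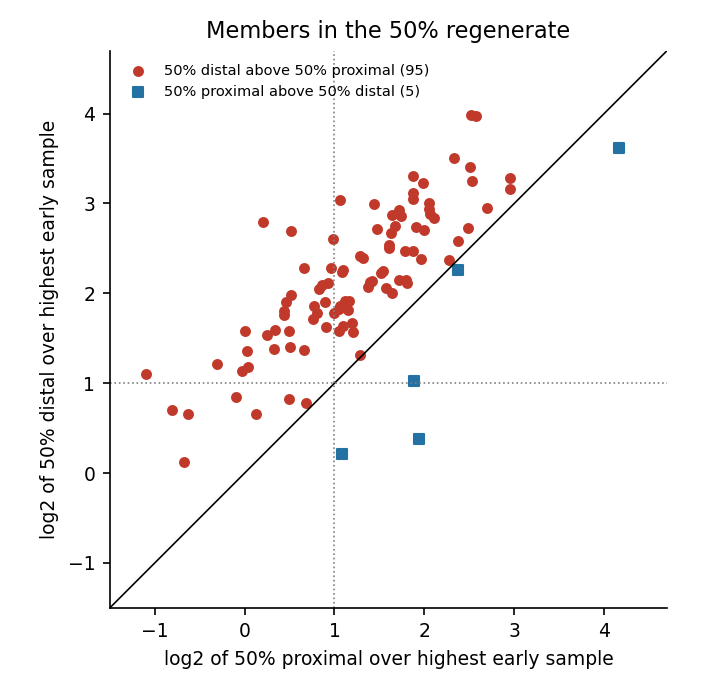
Each point is 1 of the 100 members, placed by the log2 ratio of the proximal (x axis) and the distal (y axis) part of the 50% regenerate to its highest value over the control, 48 hpa and 72 hpa samples, with 1 added to each value. Dotted lines mark a ratio of 2 and the solid line marks equality; the 95 red points lie above it and the 5 blue squares below.

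The largest ratios to the earlier samples in the distal part were those of AFI07809 and AFI10151, at 3.98 and 3.97 on the log2 scale. AFI07809 was at 363 rescaled TPM in the distal and 131 in the proximal part, and AFI10151 was at 131 and 48.9. In the proximal part the largest ratios were those of AFI25334 and AFI19323, at 4.16 and 2.95. AFI25334 went from 2.48 at 72 hpa to between 11.8 and 14.4 in the stages, then to 41.9 in the distal and 61.3 in the proximal part. It was thus higher in both parts than in any of the 3 stages, while AFI13555 was down to 10.4 in the distal and 1.51 in the proximal part.

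AFI25334 was 1 of 5 members that were higher in the proximal part, the others being AFI21680, AFI08400, AFI26015 and AFI15542, named after their values were seen. AFI08400 was nearly equal, at 19.5 in the distal and 21.1 in the proximal part. AFI26015 was at 10.8 in the distal and 20.5 in the proximal part. The 2 lower ones were AFI15542, at 1.95 and 4.38, and AFI21680, at 0.977 and 4.82. AFI15542 and AFI21680 were also the 2 members that exceeded 2 times their earlier level in the proximal part alone.

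In the explants, the members stood out in distal segments at 5 dpa, where their median was 14.8, 13.9 and 12.0 rescaled TPM in the 3 samples. It was 4.63, 4.21 and 4.82 in the 3 medial samples and 6.48, 7.14 and 6.54 in the 3 proximal samples of that day. At 3 dpa the median over members was 5.44, 6.04, 6.20 and 5.57 in distal samples, 4.75, 5.08, 5.07 and 4.13 in medial samples and 4.79, 5.29 and 4.15 in proximal samples. Distal samples thus lay above the others on both days, while proximal and medial samples overlapped at 3 dpa and did not at 5 dpa. The share of the column total held by the members was 0.782% to 0.991% in distal segments at 5 dpa, 0.46% to 0.47% in medial and 0.38% to 0.649% in proximal ones. Proximal replicate 4, which had the highest total, gave the lowest of these shares. Levels in explants and in the regeneration series come from tables that were normalized separately. Across the 100 members, the log2 level at stage 4 and the mean log2 level in distal segments at 5 dpa had a Pearson r of 0.94 and a Spearman rho of 0.893. The log2 level in the control and the mean log2 level in medial segments at 5 dpa had 0.884 and 0.738. Both are descriptions across genes, which are not independent replicates, and no value over all genes is given.

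**Figure D3:**
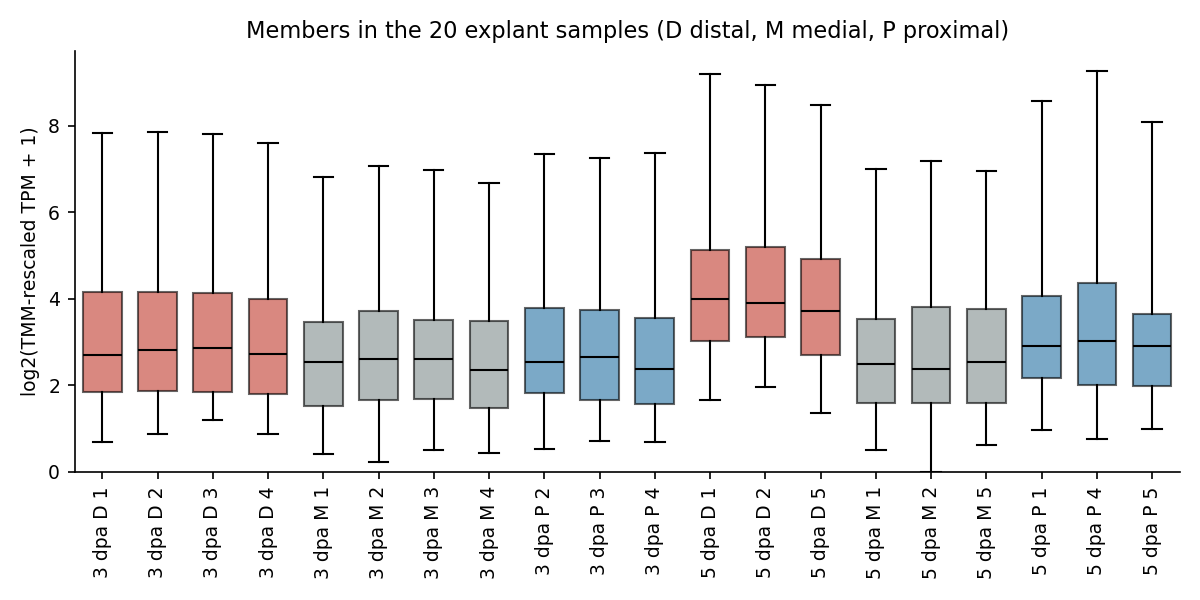
Boxes show the 100 members in each of the 20 explant samples (x axis: days post amputation, segment and replicate) as log2(rescaled TPM + 1) (y axis); boxes span the quartiles with the median as a line, and whiskers run from the 5th to the 95th percentile. The 3 distal samples at 5 dpa have medians of 12.0 to 14.8 rescaled TPM, above the 4.13 to 7.14 of all other samples.

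The comparison of distal with medial segments addresses which genes respond where the arm regenerates. At 5 dpa, 65 of the 100 members rose in distal segments, in the limma test over all 21442 genes that passed the filter (adjusted p < 0.05 and absolute log2 change > 1), where 3.42% of all genes rose. The called changes ran from 1.08 to 3.32 on the log2(value + 1) scale, which understates the change of low genes. Over all 100 members, called or not, the median change was 1.39, with quartiles of 0.80 and 1.86, against 0.00 over all genes, and 97 of the 100 were above 0. In 84 members every distal sample lay above every medial sample, against 12.4% of all genes. Here and below, shares without overlap are over all 30090 genes, including those that the filter removed. Of the 733 genes that rose, members made up 8.87%. The filter on low values removed 1 member, AFI23854. A further 3, AFI19303, AFI24138 and AFI02109, passed it only through distal segments at 5 dpa, and 2 of these are among the 65. AFI20271 passed only through distal segments of both days, and it is among the 65 and among those called in distal over proximal segments and between the days.

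AFI13555 had the largest change. It was at 18.1, 10.7 and 8.57 rescaled TPM in distal, 0.0315, 0.957 and 0.0629 in medial and 3.71, 5.66 and 2.74 in proximal samples at 5 dpa. No samples of the 3 segments overlapped. Its log2 change from medial to distal segments was 3.32 (SE 0.27, limma adjusted p = 1.28e-06). AFI32234 was at 32.3, 29.9 and 19.1 in distal and 6.70, 0 and 6.36 in medial samples, a log2 change of 2.84 (SE 0.49, limma adjusted p = 0.000958). Its 0 was in medial replicate 2, the sample with the most genes at 0, and the call held without that sample but not in a fit of only these groups (limma adjusted p = 0.0599).

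AFI10151, the member with the highest score, was at 57.9, 47.0 and 48.3 rescaled TPM in distal and 6.42, 6.90 and 6.29 in medial samples at 5 dpa. Both groups were narrow and far apart, with a log2 change of 2.78 (SE 0.16, limma adjusted p = 1.69e-08). AFI07809 was at 173, 169 and 67.0 in distal and 28.8, 13.4 and 23.6 in medial samples, so the distal samples did not overlap with the medial ones but differed widely among themselves. Its log2 change was 2.53 (SE 0.32). AFI21559 was at 40.5, 61.0 and 36.6 in distal and 7.31, 8.27 and 6.27 in medial samples, a log2 change of 2.48 (SE 0.25).

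The 2 abundant members also rose. AFI22293 was at 2965, 2600 and 1727 rescaled TPM in distal and 815, 949 and 805 in medial samples, a log2 change of 1.47 (SE 0.22, limma adjusted p = 0.000268). AFI28565 was at 2139, 2682 and 2037 in distal and 646, 1278 and 616 in medial samples, a log2 change of 1.51 (SE 0.29, limma adjusted p = 0.00184). In contrast, the 2 members with the largest ratios in the proximal part of the 50% regenerate changed little in distal over medial segments at 5 dpa. AFI25334 was at 3.67, 3.23 and 1.55 in distal and 1.33, 5.09 and 2.17 in medial samples, a log2 change of 0.05 (SE 0.37). AFI19323 was at 25.4, 15.2 and 12.3 against 17.9, 16.4 and 15.1, a log2 change of 0.04 (SE 0.22).

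At 3 dpa, 9 members rose in distal over medial segments, against 1.7% of the genes tested. All 9 also rose at 5 dpa. The median change over the 100 members was 0.38, with quartiles of 0.04 and 0.72, against 0.00 over all genes. In 45 members the distal samples all lay above the medial ones, against 7.82% of all genes. AFI13555 again had the largest change. It was at 3.90, 2.75, 4.67 and 3.63 rescaled TPM in the 4 distal samples, while 3 of the 4 medial samples were listed at 0 and the fourth at 0.0407, a log2 change of 2.21 (SE 0.24, limma adjusted p = 1.09e-05).

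AFI01663 was at 15.4, 15.5, 15.9 and 14.8 rescaled TPM in distal and 4.65, 6.36, 6.01 and 4.805 in medial samples at 3 dpa. Its distal samples hardly varied, and the log2 change was 1.36 (SE 0.15, limma adjusted p = 1.63e-05). AFI28221 was at 30.01, 39.2, 35.7 and 29.9 in distal and 12.3, 9.50, 12.9 and 16.5 in medial samples, a log2 change of 1.34 (SE 0.31, limma adjusted p = 0.012). At 5 dpa the change was 2.24 (SE 0.17) for AFI01663 and 2.10 (SE 0.36) for AFI28221. AFI10151 had a smaller change of 0.61 at 3 dpa (SE 0.14, limma adjusted p = 0.00979), with 7.59, 6.86, 8.50 and 7.76 in distal and 3.99, 5.60, 5.33 and 3.95 in medial samples.

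**Figure D4:**
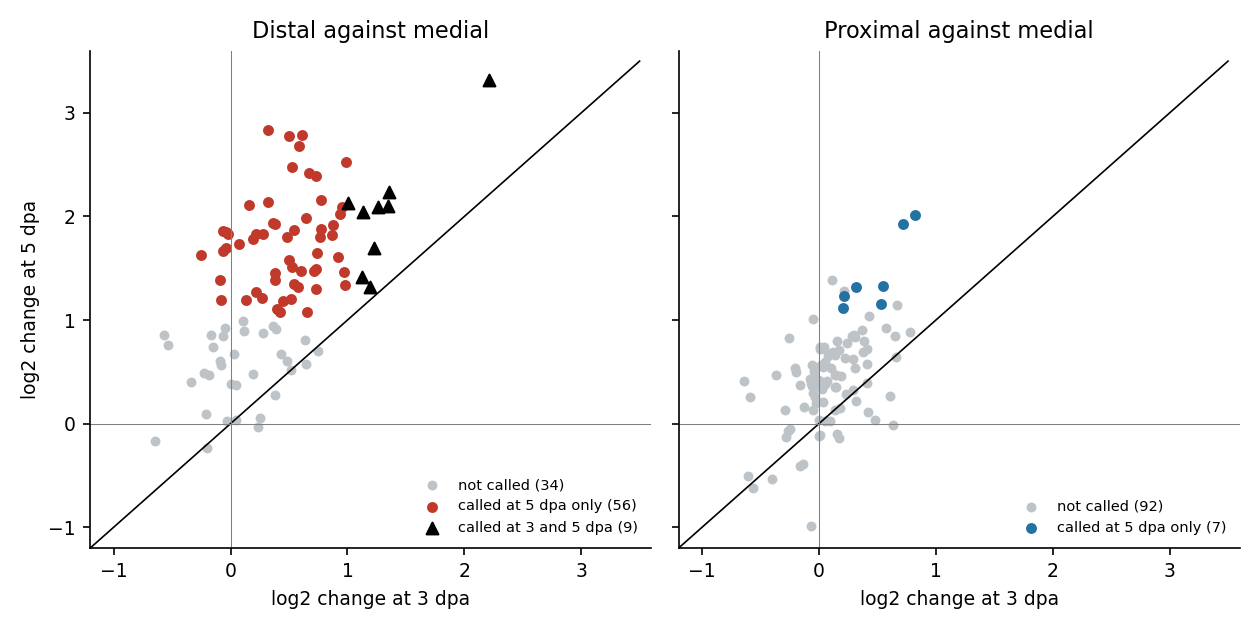
Each point is 1 of the 99 members tested, placed by its log2 change against medial segments at 3 dpa (x axis) and at 5 dpa (y axis), for distal segments on the left and proximal segments on the right; the diagonal marks equal changes. On the left, 56 members were called at 5 dpa only and 9 on both days, and on the right 7 were called at 5 dpa only.

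The difference between the days was itself tested. In 16 members the distal over medial change was larger at 5 than at 3 dpa, against 0.0839% of the genes tested, and these 16 were among 18 such genes in all. The median difference of the changes was 0.90 over the 100 members and 0.00 over all genes. For AFI10151 it was 2.17 (SE 0.21, limma adjusted p = 0.000111) and for AFI21559 1.95 (SE 0.33, limma adjusted p = 0.0211). For AFI13555, which had the largest change on both days, it was 1.11 (SE 0.36, limma adjusted p = 0.427) and missed the threshold. Rescaling the samples to the same total left 1 such member, AFI10151, and moved the median over all genes tested by -0.17.

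Proximal segments, which only close the wound, gave fewer calls. At 3 dpa, no member was called in the limma test, against 0.438% of genes tested. An unadjusted p under 0.05 was reached by 15 members, 12 of them upwards. The share over all genes is not given for that count, so nothing is read from it. The fit by limma without the intensity trend also called 0. The median change was 0.09, and 13 members had all proximal above all medial samples, against 7.41% of all genes. At 5 dpa, 7 members rose in proximal over medial segments, against 1.52% of genes tested, and all 7 also rose in distal segments. The median change was 0.46, with quartiles of 0.19 and 0.73, and 43 members had all proximal above all medial samples, against 7.23% of all genes. The count was 16 without proximal replicate 5, 11 without medial replicate 1, 2 with samples rescaled to the same total and 0 in a fit of only these groups. That rescaling moved the median over all genes tested by -0.27.

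AFI09086 was the member that changed most in proximal segments at 5 dpa. It was at 377, 614 and 270 rescaled TPM in proximal, 86.9, 108 and 98.8 in medial and 530, 393 and 353 in distal samples. Both wound ends lay well above the medial segment and overlapped with each other. The log2 change was 2.01 in proximal (SE 0.23, limma adjusted p = 6.51e-05) and 2.09 in distal segments (SE 0.23), and that between both ends was 0.08 (SE 0.23, limma adjusted p = 0.927). In AFI13555 the change from medial to proximal segments was 1.92 (SE 0.27, limma adjusted p = 0.000597).

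AFI17823 behaved like AFI09086, at 520, 840 and 417 in proximal, 199, 246 and 232 in medial and 607, 487 and 471 in distal samples, with a log2 change of 1.33 in proximal (SE 0.20, limma adjusted p = 0.0011) and 1.20 in distal segments (SE 0.20). For both members the highest proximal value was in replicate 4. AFI10151 was at 17.6, 21.6 and 14.8 in proximal samples, between the medial and distal ones, a log2 change of 1.32 over medial (SE 0.16, limma adjusted p = 0.00013).

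**Figure D5:**
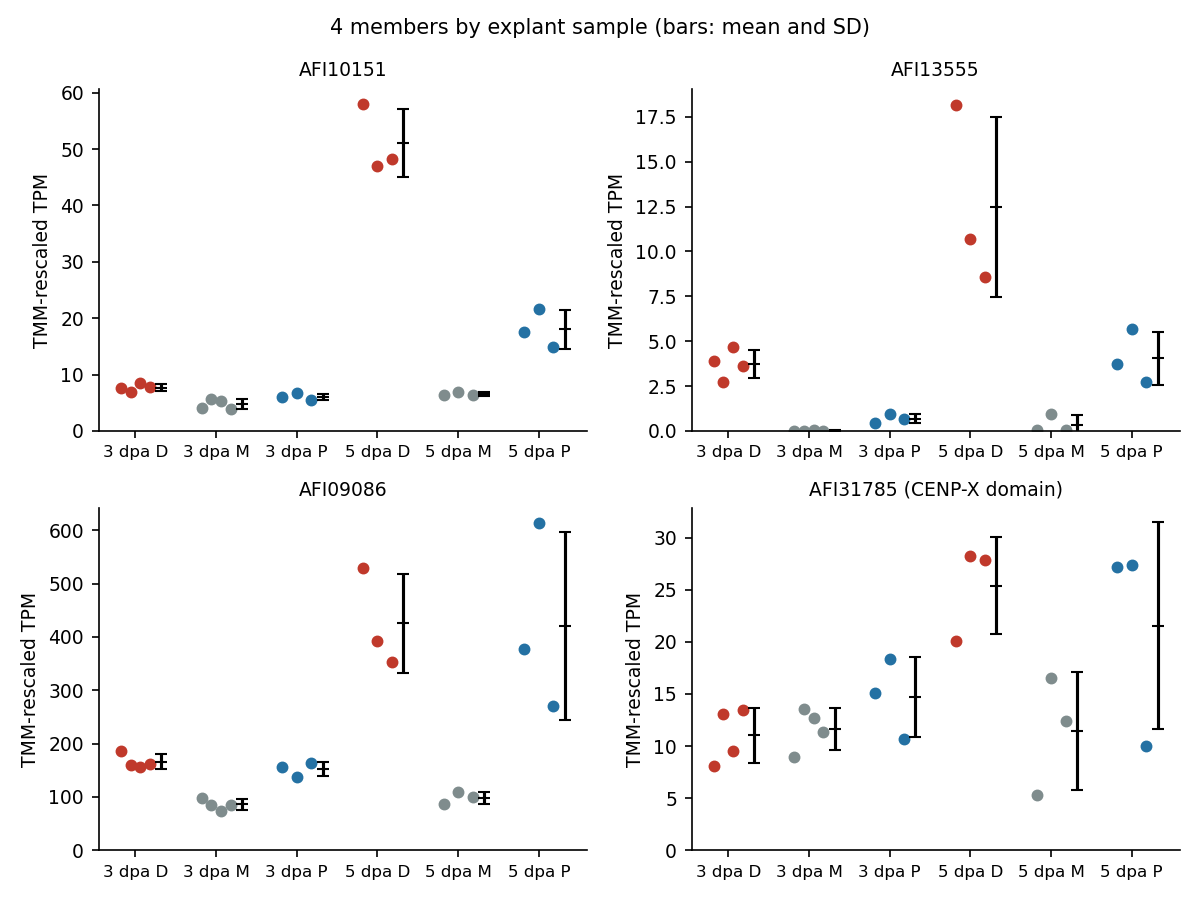
Points are the rescaled TPM (y axis) of 4 members in each explant sample, by day and segment (x axis; D distal, M medial, P proximal), and bars beside them give the mean and SD over 3 or 4 samples. In AFI10151 the distal samples at 5 dpa, at 47.0 to 57.9, stand above all others, while in AFI09086 distal and proximal samples at 5 dpa overlap.

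Compared directly, 37 members were higher in distal than in proximal segments at 5 dpa, against 0.466% of the genes tested. These are 37 of the 100 genes so called, and 35 of the 37 were also higher in distal than in medial segments. The median change was 0.92 over the 100 members and 0.01 over all genes, and 68 members had all distal above all proximal samples, against 6.85% of all genes. A fit of only these groups, with their own estimate of the spread, called 2 members. The share of all genes called by that fit is not given here, so whether the loss is particular to the members cannot be read. Rescaling to the same total moved the median over all genes tested by 0.17. At 3 dpa, 4 members were higher in distal than in proximal segments, against 0.149% of the genes tested, and 35 had all distal above all proximal samples, against 6.87% of all genes. The 4 were AFI13555 (1.49, SE 0.26), AFI09715 (1.32, SE 0.26), AFI01349 (1.18, SE 0.23) and AFI10010 (1.03, SE 0.22) on the log2 scale, the last 3 named after their values were seen. Leaving out 1 sample gave 0 to 4 members: 0 without distal replicate 3, proximal replicate 2 or proximal replicate 4, and 1 without distal replicate 1, distal replicate 2 or proximal replicate 3.

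Between the days, 40 members were higher in distal segments at 5 than at 3 dpa, against 0.499% of the genes tested, with a median change of 0.94 over the 100 members. In 80 members every sample at 5 dpa lay above every one at 3 dpa, against 8.61% of all genes. Of the 40, 36 were also among the 65 that rose over medial segments at 5 dpa. With samples rescaled to the same total the count was 18, and the median over all genes tested moved by -0.30. AFI10151 rose the most, by 2.58 (SE 0.15, limma adjusted p = 1.94e-08). In proximal segments, 5 members were higher at 5 than at 3 dpa, against 0.0606% of the genes tested, and 47 did not overlap and were higher, against 6.74% of all genes. The 5 were AFI10151, AFI13555, AFI09086 and, named after their values were seen, AFI05413 and AFI25602, with changes of 1.19 to 1.55. The count was 10 without proximal replicate 5 of 5 dpa, 1 or 2 without any other proximal sample and 0 when rescaled to the same total, which moved the median over all genes tested by -0.34. In medial segments no gene was called higher by limma, so the background is 0%, and 7 members were higher without overlap, against 3.12% of all genes. Another 4 members were lower without overlap. An unadjusted p under 0.05 was reached by 11 members, 7 of them upwards, again without a share over all genes, so nothing is read from that count. The fit by limma without the trend also called none.

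In the fit over all 6 groups, no member was called lower in any of these contrasts. Of the genes tested, 0.284% and 2.05% fell in distal over medial segments at 3 and 5 dpa, 0.00933% and 0.438% in proximal over medial and 0.173% and 0.947% in distal over proximal segments. Between the days, 0.336%, 0.0373% and 0.00466% fell in distal, proximal and medial segments, and 0.00466% had a smaller distal over medial change at 5 dpa. The nearest was AFI19323 in proximal segments at 5 dpa. It was at 8.12, 8.99 and 6.42 rescaled TPM in proximal and 17.9, 16.4 and 15.1 in medial samples, with no overlap, a log2 change of -0.99 (SE 0.22, limma adjusted p = 0.0159), just short of the limit of 1. With a pseudocount of 0.1, and with samples rescaled to the same total, it was called lower.

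The changes in explants can also be set beside the score from the regeneration series. The 50 members ranked highest by score had a median change of 1.81 in distal over medial segments at 5 dpa and 38 of them rose, and the other 50 had a median of 1.09 with 27 that rose. Across the 100 members the score and this change had a Pearson r of 0.503 and a Spearman rho of 0.451, and the log2 ratio of the distal to the proximal part of the 50% regenerate and this change had 0.56 and 0.528. Both are descriptions over genes, whose values share the same libraries.

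The members also differed by their fate in the proximal part of the 50% regenerate. Of the 37 members that were not over 2 times their earlier level there, 7 rose in distal over medial segments at 3 dpa, against 2 of the other 63. At 5 dpa, 23 of the 37 and 42 of the 63 rose, with medians of 1.34 and 1.39. All 16 members whose change was larger at 5 than at 3 dpa were among the 63. These splits were made after the values were seen and carry no test.

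The gene table used here covers chromosome 1, and 2 members had an annotation in it. This was a domain match for AFI31785 and a gene name for AFI30175. Whether the members share a function was not tested. AFI31785 lies on chromosome 1 of the study's assembly from 33519198 to 33526387 on the plus strand. It has no gene name and carries a CENP-X domain, a domain named for a small protein that, in vertebrates, sits at centromeres and takes part in DNA repair. It was at 15.6, 8.404 and 12.1 rescaled TPM in the control, 48 hpa and 72 hpa samples, at 60.9, 87.8 and 56.0 in the stages, and at 78.6 in the distal and 34.4 in the proximal part of the 50% regenerate. At 5 dpa it was at 20.1, 28.3 and 27.9 in distal, 5.34, 16.6 and 12.4 in medial and 27.2, 27.4 and 10.1 in proximal samples. Distal samples lay above medial ones, with a log2 change of 1.19 (SE 0.36, limma adjusted p = 0.034), and proximal samples overlapped with both. The call was lost without distal replicate 2, distal replicate 5 or medial replicate 1, and limma's adjusted p was 0.0566 with no filter, 0.098 in a fit of only these groups and 0.0524 with samples rescaled to the same total. At 3 dpa its change was -0.08 (SE 0.31), with 8.06, 13.1, 9.49 and 13.4 in distal and 8.94, 13.6, 12.7 and 11.3 in medial samples, which overlapped.

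AFI30175 is listed as Mutyh, which encodes an adenine DNA glycosylase that, in mammals and bacteria, removes adenine mispaired with oxidized guanine. It lies on chromosome 1 from 49302236 to 49322369 on the minus strand and is the member ranked 98. It was at 0.830, 0.606 and 0.892 rescaled TPM in the 3 earlier samples, 5.76, 4.40 and 5.01 in the stages, and 3.15 in the distal and 0.855 in the proximal part of the 50% regenerate. At 5 dpa it was at 2.66, 3.41 and 2.91 in distal, 0.847, 2.19 and 1.65 in medial and 1.39, 1.21 and 1.41 in proximal samples. Distal samples lay above all others, but the log2 change of 0.67 over medial segments (SE 0.19, limma adjusted p = 0.0218) was under the limit of 1.

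A list of 11 chromosome 1 genes of DNA replication and repair, drawn up here from their names, holds 1 member, Mutyh. Of the 11 genes 10 were tested. The median change in distal over medial segments at 5 dpa was 0.54 over all 11, Mutyh included. In that contrast 2 genes rose and none fell. These were Psf1, a subunit of the GINS complex at the replication fork, with a log2 change of 2.16 (limma adjusted p = 1.3e-05), and Xrcc3, which acts in homologous recombination, with 1.07, where 3.42% of all genes tested rose. Neither is a member. Psf1 also rose in proximal over medial segments at 5 dpa, by 1.04 (limma adjusted p = 0.0167), the only gene of the list that did. At 3 dpa, none of the 10 was called in distal segments. Rpa1-1 and Rpa1-2 were higher there by 0.57 and 0.80 (limma adjusted p = 0.00502 and 0.00387), under the limit of 1.

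Muscle and neuronal genes on chromosome 1 did not pass the test in distal segments, and the genes tested were few. Of 3 muscle genes 2 were tested and of 8 neuronal genes 6 were, and none was called at either day or end. The summed level of the muscle genes at 5 dpa was 4.46 to 6.52 rescaled TPM in distal and 4.61 to 13.4 in medial segments, and that of the neuronal genes was 49.0 to 65.2 and 62.8 to 68.3. Most of the neuronal sum was Elav4, with means of 47.2 in distal and 53.4 in medial segments at 5 dpa. None of the muscle and neuronal genes was at 0 in every sample. Of 13 extracellular matrix genes 8 were tested and 3 fell in distal segments at 5 dpa, where 2.05% of all genes tested fell, with sums of 31.0 to 42.1 in distal and 63.2 to 89.6 in medial segments. Of 16 ribosome and translation genes, all tested, 5 rose at 3 dpa and 3 at 5 dpa in distal segments, where 1.7% and 3.42% of all genes tested rose. The summed level of this list at 5 dpa was between 25420 and 42530 in distal segments and between 13920 and 24500 in medial ones. Proximal samples, between 16560 and 68670, overlapped with both. The 3 dpa sums overlapped between ends as well: distal samples lay between 14860 and 21430, medial samples between 14540 and 19600, and proximal samples between 18540 and 21610. Their part in the changes of the members was not tested.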

How the data were processed

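RNA-seq of *A. filiformis* was measured in 28 samples, 8 of the arm regeneration series and 20 of arm explants. The values deposited by the authors are a normalized signal: reads were pseudo-aligned to the study's gene models with kallisto, and TMM factors were then applied to the TPM. This TMM step is described in the methods for the regeneration series only; for explants, the table's name gives it. The study's own calls came from counts, which were not used here.

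The members were chosen as described, with a pseudocount of 1. Explant values were tested as log2(value + 1) with limma 3.58.1 in R 4.3.3, using an intensity trend and 6 groups of samples; genes had to reach 1 in 3 or more of the 20 samples. Tests were two-sided with Benjamini–Hochberg adjustment, and calls needed an adjusted p under 0.05 and an absolute log2 change over 1. The procedure was tested on simulated data. Each explant sample is a batch, and whether batches share animals is not stated, so p-values measure the spread between batches.

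The labels do not say whether a shared replicate number marks a shared batch. Deviations from group means were compared between same-numbered samples. Over 3 pairs each at 3 dpa, the correlations were 0.18 to 0.405 between proximal and medial and 0.168 to 0.32 between distal and proximal segments. Samples with different numbers gave -0.316 to 0.063 and -0.279 to 0.093 there, so same-numbered samples were more alike. Between distal and medial segments the same-numbered correlations were 0.017 to 0.278 at 3 dpa and -0.041 to 0.205 at 5 dpa. With different numbers they were -0.197 to 0.103 at 3 dpa. The main tests did not use the replicate number, and the replicate block was run as an alternative. At 5 dpa, replicate 4 exists for proximal segments alone.

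Members named in the text are those annotated in the gene table, the 3 with the highest scores, the 3 with the largest called changes with non-overlapping groups in each contrast against medial segments, the 2 with the largest ratios in each part of the 50% regenerate, the 2 most abundant at stage 4 and the genes at the limit of the rule. Others are marked as named after their values were seen. The members, the gene lists and the tests were chosen with earlier results of these data known. Alternatives were a pseudocount of 0.1, stricter and no filters, rescaling by the median of ratios or to equal totals, the replicate block, fits of 2 groups alone, no trend and each sample left out. Explant counts under alternatives are given without the share of all genes called under the same setting. They show only how far a count depended on the setting. Other steps ran in Python 3.11.15 (pandas 2.3.3, numpy 2.4.6, matplotlib 3.10.9, scipy 1.17.1).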

Additional observations from a re-analysis of the deposited data

Results flagged for a closer look

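AFI13555 in medial segments at 3 dpa was at 0.0407 rescaled TPM in replicate 3 and listed at 0 in the other 3 samples. That sample was flagged only because the others were all at 0, and the difference lies at the floor of the values. AFI01349 was at 9.78 in distal replicate 3 at 3 dpa, with the other 3 distal samples at 8.15, 8.02 and 8.06. AFI09715 was at 12.7 in distal replicate 4 at 3 dpa, with the others at 24.4, 24.8 and 25.05. Chance flags about 1 in 20 groups of samples in this way, and 48 groups were checked.

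The distal over medial change differed between the days by 2.17 on the log2 scale in AFI10151 and by 1.95 in AFI21559, both larger at 5 dpa in limma's test of the difference (adjusted p = 0.000111 and 0.0211). With samples rescaled to the same total the value of AFI21559 was 1.72 and no longer passed (adjusted p = 0.285), nor did it without distal replicate 3 or medial replicate 3 of 3 dpa, or without distal replicate 2 or medial replicate 5 of 5 dpa. That of AFI10151 passed under each alternative run.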

How the results depend on the processing

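Depth cannot be read from rescaled TPM, so low members have no known counting error. The choice of members itself depended on processing: 58 of the 100 were chosen again with a pseudocount of 0.1, 60 after rescaling to the same total, 61 with a minimum of 10 at stages 3 to 5 and 93 by the median of ratios. Under that minimum, 61 members remained, of which 59 and 35 were over 2 times their earlier level in the distal and proximal part of the 50% regenerate, 58 and 34 were at 50% or more of their lowest stage, and 58 were higher in the distal part.

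Counts of members called higher in explants that moved by over 1.5 times were as follows. A pseudocount of 0.1 gave 14 for distal over medial at 3 dpa and 1 for proximal over medial at 3 dpa. A filter at 10, which tests 54 members, gave 37 for distal over medial and 22 for distal over proximal segments at 5 dpa, 25 for distal segments between the days and 7 for the difference of changes. No filter gave 3 for proximal segments between the days. A fit of only the groups compared gave 0 for proximal over medial and 2 for distal over proximal at 5 dpa, and 0 for proximal segments between the days. Rescaling to the same total gave 2 for proximal over medial at 5 dpa, 18 and 0 for distal and proximal segments between the days and 1 for the difference of changes, and it moved the median over all genes tested by -0.11 for distal over medial at 5 dpa, 0.11 for distal over proximal at 3 dpa and -0.14 for medial segments between the days. Leaving out 1 sample gave 8 to 11 and 60 to 68 for distal over medial at 3 and 5 dpa, 0 and 5 to 16 for proximal over medial, 0 to 4 and 29 to 41 for distal over proximal, 31 to 41, 1 to 10 and 0 for distal, proximal and medial segments between the days and 11 to 18 for the difference of changes.

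With the replicate block, the counts were 9 and 65 for distal over medial at 3 and 5 dpa, 0 and 6 for proximal over medial, 3 and 31 for distal over proximal and 13 for the difference of changes, and 1 member, AFI19323, was called lower in proximal than medial segments at 5 dpa, as it also was with a pseudocount of 0.1 and after rescaling to the same total. A comparison between days allows no such pairing. Over the 40 called results of named members, 1102 values under alternatives included 1028 that were still called, 74 that were not and 0 of the opposite sign.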
